A study of Mus musculus with 2 samples.

Results

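The enzymes and chaperones that fold and trim fibrillar procollagen were followed in single cells from fibrotic mouse liver. They are the 10 genes Serpinh1, P4ha1, P4ha2, P4hb, Fkbp10, Crtap, P3h1, Pcolce, Bmp1 and Adamts2, taken by name from the 31054 genes counted, with earlier results of these data known. Hepatic stellate cells (HSCs), the mesenchymal cells that deposit scar collagen in the liver, had been prepared by in situ digestion and a density gradient. One library came from each of the genotypes p16-LRTD and p16-Alb-LRTD, male mice of C57BL/6 background. Both genotypes carried p16-CreERT2, a tamoxifen-dependent Cre driven by p16Ink4a, and the reporter R26-CAG-LSL-RSR-tdTomato-2A-DTR, which holds tdTomato and the diphtheria toxin receptor behind a Cre stop and a Dre stop. Only p16-Alb-LRTD also carried Alb-DreERT2, a Dre recombinase driven by the albumin promoter, so that in these mice hepatocytes with high p16 expression could be killed by the toxin. Mice of both genotypes received CCl4, a hepatocyte toxin, for 4 weeks together with tamoxifen and diphtheria toxin. The age of the mice and the number pooled into a library are not given in the sources used here, and the study raises, as a speculation, incomplete suppression of receptor leakage by the stop cassette.

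Fibrillar procollagen chains are made in the endoplasmic reticulum (ER), where prolines are hydroxylated, chains are joined into a helix and the helix is held by dedicated chaperones. After secretion, proteinases remove the propeptides at both ends, and fibrils can then form. Activated HSCs are the main source of fibrillar collagen in the injured liver. Among the genes studied here, P4ha1 and P4ha2 encode alternative catalytic subunits of prolyl 4-hydroxylase, and P4hb encodes protein disulfide isomerase, its partner subunit. Crtap and P3h1 encode partners in a complex that hydroxylates single prolines at the 3 position, Fkbp10 encodes the prolyl isomerase FKBP65, and Serpinh1 encodes HSP47, a chaperone that binds the finished helix. Adamts2 encodes the N-propeptidase, Bmp1 the C-propeptidase, and Pcolce a secreted enhancer of the C-propeptidase.

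The identifiers of all 10 genes were found in GENCODE vM21 (GRCm38), where each is protein coding. P4ha1 lies at chr10:59323296-59373304, P4ha2 at chr11:54100095-54131665, P4hb at chr11:120560298-120573253, Crtap at chr9:114375134-114390675, P3h1 at chr4:119232915-119248975, Fkbp10 at chr11:100415697-100424824 and Serpinh1 at chr7:99345376-99353239. Adamts2 lies at chr11:50602084-50807573, Bmp1 at chr14:70474558-70520234 and Pcolce at chr5:137605103-137613784. Pcolce shares part of its span with Fbxo24 on the same strand, so its counts are the least certain in origin. Fkbp10, Crtap, Pcolce and Adamts2 also overlap annotated genes on the opposite strand, and whether the counting used strand is not given in the sources used here.

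Promoter sequence was available for 8 of the 10 genes. The 250 bases before the RefSeq start of 4 of them are shown because they belong to the genes that part ways in the results: P4ha1 and P4ha2 were higher in stellate cells of p16-Alb-LRTD, and P4hb and Serpinh1 were lower. The sequences are from RefSeq, build GRCm38.p6, and are written 5′ to 3′ on the strand of the gene. Capitals mark ACGTG on either strand, the core of the hypoxia response element. The windows are chr10:59323046-59323295 on the forward strand, chr11:54100674-54100923 on the forward strand, chr11:120573254-120573503 on the reverse strand and chr7:99353240-99353489 on the reverse strand.
P4ha1: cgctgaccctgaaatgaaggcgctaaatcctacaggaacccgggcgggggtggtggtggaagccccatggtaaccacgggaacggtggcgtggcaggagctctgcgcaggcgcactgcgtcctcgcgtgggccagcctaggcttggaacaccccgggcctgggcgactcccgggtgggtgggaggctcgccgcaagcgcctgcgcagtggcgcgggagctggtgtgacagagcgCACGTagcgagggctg
P4ha2: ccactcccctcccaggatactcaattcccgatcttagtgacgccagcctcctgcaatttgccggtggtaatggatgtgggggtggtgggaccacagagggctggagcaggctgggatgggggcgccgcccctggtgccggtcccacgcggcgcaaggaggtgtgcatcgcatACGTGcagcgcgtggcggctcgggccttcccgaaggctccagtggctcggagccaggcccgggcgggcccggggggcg
P4hb: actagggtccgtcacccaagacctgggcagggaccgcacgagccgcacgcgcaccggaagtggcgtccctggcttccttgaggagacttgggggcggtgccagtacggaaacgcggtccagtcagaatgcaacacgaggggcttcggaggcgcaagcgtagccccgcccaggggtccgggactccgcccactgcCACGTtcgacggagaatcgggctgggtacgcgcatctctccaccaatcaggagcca
Serpinh1: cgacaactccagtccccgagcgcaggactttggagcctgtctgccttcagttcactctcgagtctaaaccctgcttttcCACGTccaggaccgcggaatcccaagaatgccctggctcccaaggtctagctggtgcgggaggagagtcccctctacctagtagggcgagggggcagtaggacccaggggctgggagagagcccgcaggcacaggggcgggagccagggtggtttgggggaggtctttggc

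The RefSeq start of P4ha2 lies 829 bases inside the GENCODE span given above, at the start of a shorter annotated transcript, so its window is within the gene and outside its annotated exons. The windows of P4ha1, P4hb and Serpinh1 end at the start of the GENCODE span. Counted from the RefSeq start, the core ACGTG began 16 bases before that of P4ha1, 78 before that of P4ha2, 56 before that of P4hb and 171 before that of Serpinh1. It was thus present in windows of genes that were higher and of genes that were lower. P3h1 held it only in the second of its 2 windows, whose start lies 914 bases inside the gene span. In all 5 of 8 genes had a match, 3 of them before the gene span and 2, P4ha2 and P3h1, within it, and 16.6% of all 32851 windows of that length did. Median GC content was 63.6% over the windows of these genes and 52.4% over all windows. The heat shock element GAANNTTC, which was searched because Serpinh1 encodes a heat shock protein, was in none of the 8 and in 6.69% of all windows. The ER stress element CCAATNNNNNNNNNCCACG was likewise in none of the 8 and in 0.113% of all windows. A match is only a string of letters in this window. Of the 9 windows, 3 lay wholly inside the gene span, those of P4ha2, Pcolce and the second of P3h1, and sequence outside the windows was not searched.

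The p16-LRTD library held 11149 barcodes and 193746596 unique molecular identifiers (UMIs, counts of captured mRNA molecules), and the p16-Alb-LRTD library 8806 and 162219167. After the numeric limits of the study 9004 and 7416 barcodes remained, and 95 barcode sequences occurred in both libraries. Cells were assigned by summed marker UMIs per 10000: stellate at 15 or more of Lrat, Ecm1, Hgf and Reln, endothelial at 8 or more of Kdr, Stab2 and Ptprb, and Kupffer cells, the resident macrophages of the liver, at 8 or more of Clec4f, Cd5l, Vsig4 and Csf1r. A barcode passing exactly 1 gate was used, which gave 7852 and 6621 stellate, 430 and 283 endothelial, and 283 and 178 Kupffer cells in the respective libraries. Median depth was 17025 and 18136 UMIs in stellate, 11781 and 11992 in endothelial, and 19514 and 25102 in Kupffer cells. All 10 stellate markers examined reached 5 CPM (UMIs scaled to a common total, which expresses a gene's share of all UMIs) in stellate cells of both libraries. The summed portal fibroblast list stood at 76.3 and 37.0 CPM there, the smooth muscle list at 150.9 and 74.0 CPM, the mesothelial list at 44.8 and 43.7 CPM and the hepatocyte list at 32.1 and 23.6 CPM.

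Expression is given as CPM of the counts summed over the cells of a type, and differences as the log2 ratio of p16-Alb-LRTD over p16-LRTD. Where a pair of values follows a gene, p16-LRTD comes first and p16-Alb-LRTD second. Since each genotype had a single library, nothing could be tested, and the 95% intervals speak of counting error alone, without the variation among mice or preparations. A gene was called past the fold when the libraries differed by at least 1.5-fold and it averaged at least 5 CPM.

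In stellate cells, 8 of the 10 genes were lower and 2 were higher in p16-Alb-LRTD. None reached 1.5-fold, whereas 3.05% of 10179 genes tested were lower and 3.03% higher by that fold. In all, 6 of the 10 were lower by at least 0.32 on the log2 scale, against 11.0% of all genes, and none was higher by that much, against 7.20%. The median log2 ratio of the 10 was -0.34. Over all genes tested it was -0.05, and 60.7% of genes were below 0. Every one of the 10 counting intervals lay wholly on 1 side of 0.

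**Figure D1:**
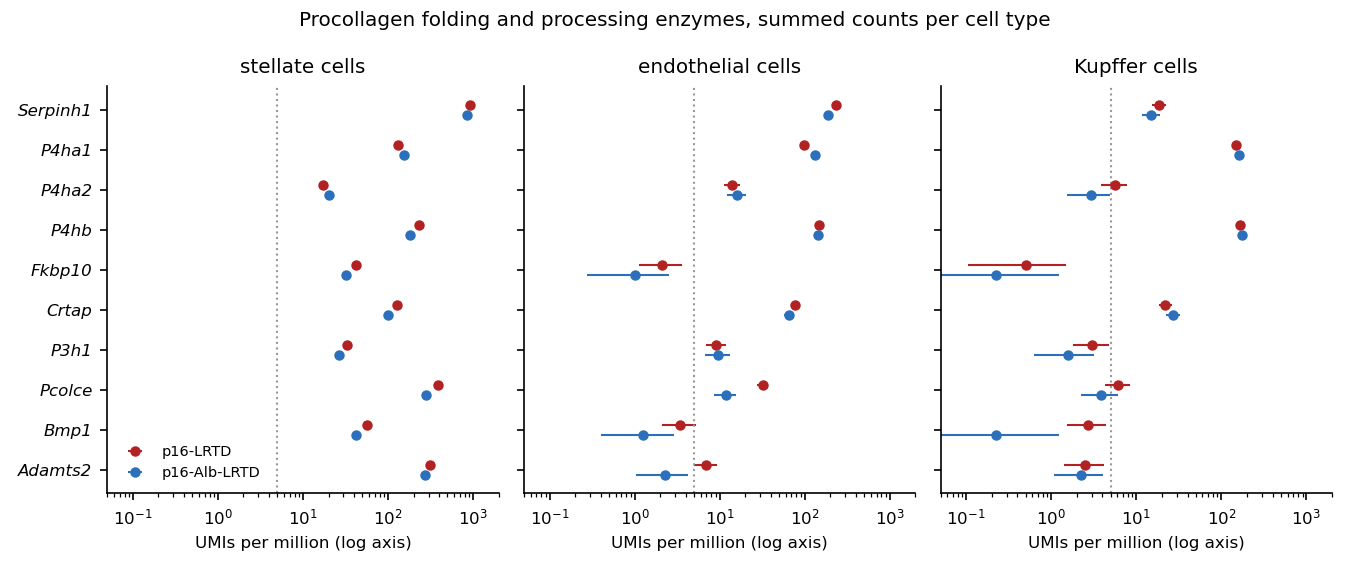
Level of each gene in CPM (log axis) in stellate, endothelial and Kupffer cells of p16-LRTD (red) and p16-Alb-LRTD (blue); bars are exact 95% counting intervals and the dotted line marks 5 CPM. In p16-LRTD, stellate cells had 1.35-fold the endothelial level of P4ha1 and 1.60-fold that of P4hb. Adamts2 was at 314.5 CPM in stellate cells and 2.52 CPM in Kupffer cells of that library.

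The prolyl 4-hydroxylase subunits did not move together. P4ha1 stood at 132.9 and 154.3 CPM, a log2 ratio of 0.22 (0.19 to 0.24). P4ha2 was higher as well, at 17.1 against 20.1 CPM, with a log2 ratio of 0.24 (0.15 to 0.32). Their partner P4hb was lower, at 233.8 against 183.0 CPM, and its log2 ratio was -0.35 (-0.38 to -0.33). The catalytic and the partner subunit thus lay on opposite sides of equal expression. Per UMI of P4hb, there were 0.568 and then 0.844 UMIs of P4ha1, a change in log2 ratio of 0.57 (0.53 to 0.61). For P4ha2 per P4hb the change was 0.59 (0.51 to 0.67). The balance between P4ha1 and P4ha2 differed little, with 7.79 and 7.68 UMIs of P4ha1 per UMI of P4ha2 and a change of -0.02 (-0.11 to 0.07). These quotients compare libraries, not the abundance of the proteins, since P4hb also serves other clients.

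Both genes of the proline 3-hydroxylation complex among the 10 were lower. Crtap, the scaffold, stood at 127.1 and 99.7 CPM, a log2 ratio of -0.35 (-0.38 to -0.32). P3h1, the enzyme, stood at 33.4 and 26.4 CPM, a log2 ratio of -0.34 (-0.40 to -0.27). The pair kept its balance within counting error, with 0.263 and 0.265 UMIs of P3h1 per UMI of Crtap. Ppib, a gene of the same complex outside the list studied, was lower as well. It stood at 590.5 and 441.9 CPM, a log2 ratio of -0.42 (-0.43 to -0.40). Fkbp10, the isomerase, was lower at 42.4 against 31.8 CPM, with a log2 ratio of -0.41 (-0.47 to -0.36).

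Serpinh1 had the smallest difference of the 10 genes. It stood at 933.3 and 842.0 CPM, a log2 ratio of -0.15 (-0.16 to -0.14). Among the secreted factors, Pcolce had the lowest ratio of the 10, at 390.9 against 278.9 CPM and a log2 ratio of -0.49 (-0.51 to -0.47). Bmp1, the proteinase that Pcolce enhances, stood at 56.2 and 41.5 CPM, a log2 ratio of -0.44 (-0.49 to -0.39). Adamts2, which acts at the other end of the chain, differed less, at 314.5 and 274.9 CPM with a log2 ratio of -0.19 (-0.21 to -0.17). The C-terminal pair was therefore further below equal expression than the N-propeptidase.

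The collagens on which these proteins act differed far more. Col1a1 stood at 1950 and 503.9 CPM, a log2 ratio of -1.95 (-1.96 to -1.94). Col3a1 followed with -1.60 (-1.61 to -1.60). The smallest differences among the 5 fibrillar collagens examined were those of Col5a2, at -1.11 (-1.14 to -1.09), and Col5a1, at -0.58 (-0.60 to -0.56). All 5 were lower and 4 were past the fold, and the lowest ratio among the folding and trimming genes lay above the highest ratio among the collagens.

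**Figure D2:**
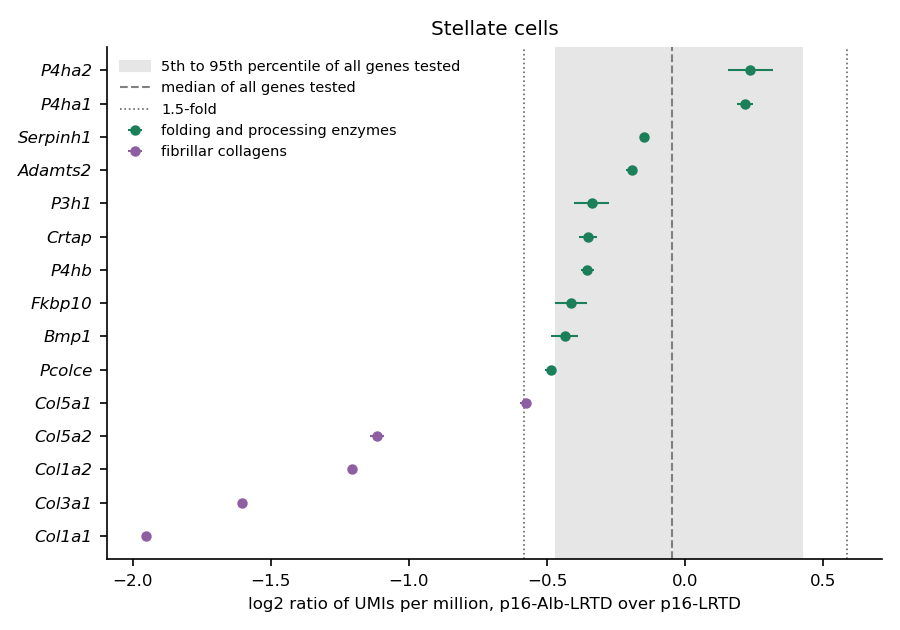
Log2 ratio (p16-Alb-LRTD over p16-LRTD, horizontal axis) of the 10 folding and processing genes (green) and 5 fibrillar collagens (purple) in stellate cells, with exact 95% counting intervals; the grey band holds the central 90% of genes and dotted lines mark 1.5-fold. The green points run from -0.49 for Pcolce to 0.24 for P4ha2 and all lie to the right of the purple points.

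The levels were also expressed per UMI of the substrate. The summed level of Col1a1, Col1a2 and Col3a1 was 8353 and 2852 CPM, a log2 ratio of -1.55. Per 1000 of these collagen UMIs there were 111.7 and 295.3 UMIs of Serpinh1, 2.64-fold more in p16-Alb-LRTD. The quotient was 2.09-fold higher for Pcolce, 46.8 against 97.8 UMIs, and 3.45-fold higher for P4ha2, with the other members between. The collagen sum being lower, 99.6% of all genes tested were also higher per collagen UMI, so this excess is not a result about these genes. Without the highest collagen bin described below, where the collagen sum had a log2 ratio of -0.08, the values per collagen UMI parted: Adamts2 was at 0.56, P4ha1 at 0.32, P4ha2 at 0.31 and Serpinh1 at 0.17, whereas Pcolce was at -0.30, P4hb at -0.21, Crtap at -0.16 and P3h1 at -0.12. Fkbp10 and Bmp1 were within counting error of 0, and 55.4% of all genes were above 0. Serpinh1 per collagen UMI was at 0.95 without cells holding a UMI of Dpt, Pi16, Wt1 or Msln. The collagens remained lower in that setting, with Col1a1 at -1.36, Col3a1 at -1.10 and Col1a2 at -0.63, whereas Serpinh1 in CPM was at -0.03. The share of all genes higher per collagen UMI was not computed there.

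Stellate cells of both libraries were next placed in 4 bins of equal size by their collagen UMIs per 10000, with limits at 14.3, 23.1 and 51.0. The 10 genes are not part of that score. The bins are ranges of a score and not cell types, and 1511, 1282 and 652 of 14473 cells lay within 10% of the respective limits. The highest bin held 36.8% of the stellate cells of p16-LRTD but 11.0% of those of p16-Alb-LRTD. Collagen CPM was nearly equal between libraries in the lowest bin (1053 and 1050), the second (1817 and 1823) and the third (3500 and 3304), but not in the highest (16565 and 8980). Median depth ran from 14660 to 20130 UMIs over the bins of p16-LRTD and from 17738 to 18619 over those of p16-Alb-LRTD.

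Most of the 10 genes were higher in the bins with more collagen, Adamts2 by the widest margin. In p16-LRTD its level was 140.4, 156.6, 237.0 and 492.5 CPM from the lowest to the highest bin, a 3.51-fold span. In p16-Alb-LRTD the levels were 193.9, 237.7, 322.5 and 455.7 CPM, a 2.35-fold span. Bmp1 spanned 2.13-fold and 1.62-fold, Fkbp10 1.79-fold and 1.42-fold, and Serpinh1 1.68-fold and 1.32-fold. Over all genes, 9.41% and 8.13% were higher by at least 1.5-fold in the highest than in the lowest bin. P4ha1 did not follow collagen: its highest bin was 1.02-fold its lowest in p16-LRTD and 0.850-fold in p16-Alb-LRTD. P4ha2 was at 0.963-fold and 0.888-fold, and P4hb at 1.12-fold and 1.02-fold. These hydroxylase subunits were therefore nearly flat over a range in which Col1a1 spanned 69.6-fold and 35.1-fold.

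Within bins, the difference between genotypes took different forms among the genes. Pcolce, Crtap and P4hb were lower in p16-Alb-LRTD in every bin: the log2 ratios of Pcolce were -0.24, -0.41, -0.47 and -0.49, those of Crtap -0.16, -0.21, -0.32 and -0.40, and those of P4hb -0.25, -0.29, -0.35 and -0.38, from the lowest to the highest bin. P4ha1 was higher in the first 3 bins, with log2 ratios of 0.33, 0.24 and 0.16, and stood at 0.06 (-0.01 to 0.13) in the highest. Serpinh1 and Adamts2 changed sides. Serpinh1 had log2 ratios of 0.16, 0.10 and 0.04 in the first 3 bins and -0.18 (-0.20 to -0.15) in the highest. Adamts2 had 0.46, 0.60 and 0.44, and then -0.11 (-0.15 to -0.07). Both were thus higher in p16-Alb-LRTD in the 3 bins of nearly equal collagen and lower in the sum over all stellate cells. Cells of the same bin were not alike in other genes: 2.37% and 11.7% of cells in the second bin and 11.6% and 32.4% in the third held a UMI of the markers Dpt, Pi16, Wt1 or Msln. Without such cells the highest-bin values were 0.01 for Serpinh1 and 0.07 for Adamts2, both within counting error of 0. With the bins cut anew after these cells were left out, they were -0.04 (-0.06 to -0.01) for Serpinh1, still below 0, and 0.0504 for Adamts2. Fkbp10 was within counting error of equality in the lowest and the third bin, at -0.15 (-0.28 to -0.02) in the second and at -0.42 (-0.55 to -0.29) in the highest. Bmp1 was within counting error in the first 2 bins, at 0.05 and 0.00, and then lower, at -0.22 and -0.34. P3h1 was at -0.13, -0.28, -0.20 and -0.16, and P4ha2 at 0.38, 0.13, 0.14 and 0.26. The median log2 ratio of the 10 genes was -0.02, -0.07, -0.12 and -0.26 over the bins, beside -0.07, -0.07, -0.04 and -0.00 for all genes.

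**Figure D3:**
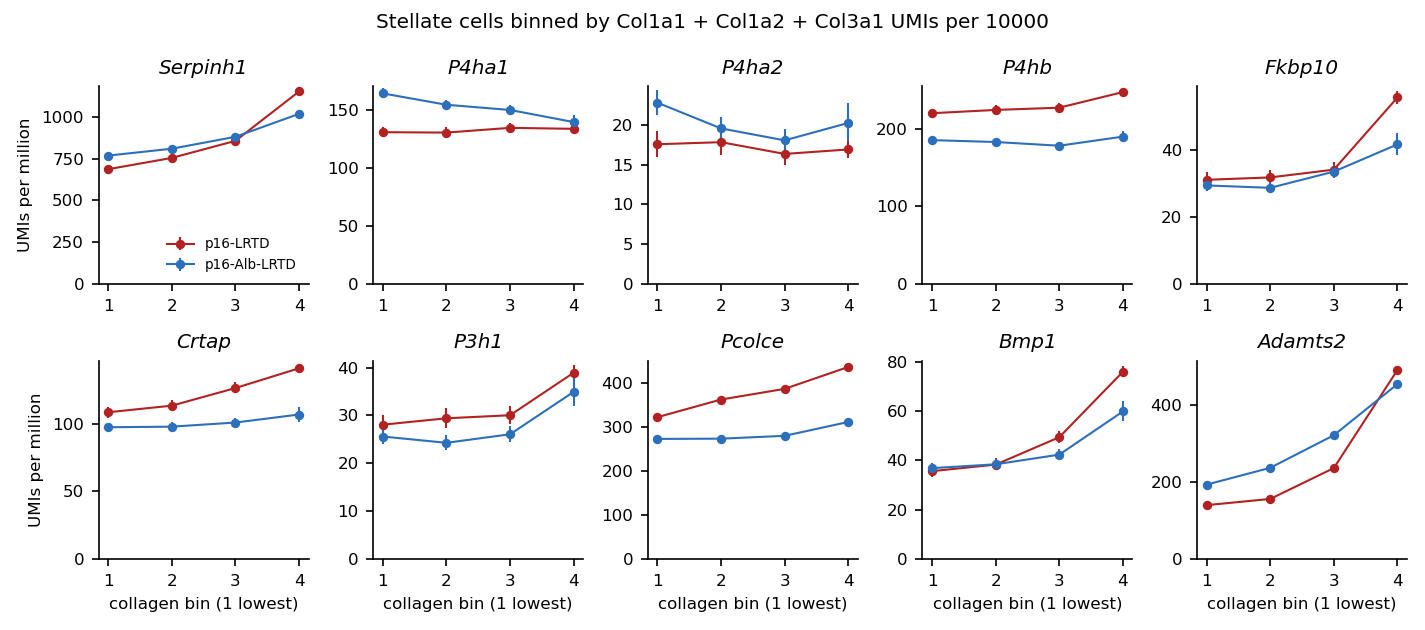
Level of each gene (CPM, vertical axes from 0) in stellate cells of 4 collagen bins, from lowest (1) to highest (4), for p16-LRTD (red) and p16-Alb-LRTD (blue), with exact 95% counting intervals. The lines of Serpinh1 and Adamts2 cross between bins 3 and 4, those of Pcolce, Crtap and P4hb stay apart, and P4ha1 is flat or declining.

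Dpt, Pi16, Wt1 and Msln are known from fibroblasts and mesothelial cells, and whether the cells holding them here were stellate or other mesenchymal cells was not settled. A single UMI is also found more readily in a deeper cell, and median depth with and without one was 20389 and 16137 UMIs in p16-LRTD and 18398 and 18048 in p16-Alb-LRTD. Of all stellate cells, 25.4% in p16-LRTD and 22.0% in p16-Alb-LRTD held at least 1 UMI of Dpt, Pi16, Wt1 or Msln. From the lowest to the highest bin the shares were 2.26% and 3.43%, 2.37% and 11.7%, 11.6% and 32.4%, and 59.9% and 71.0%, so within each bin they were higher in p16-Alb-LRTD, by the widest margin in the third. The UMIs were almost all of Dpt, a fibroblast matrix gene found in 21.9% and 15.6% of stellate cells, and Wt1, a mesothelial transcription factor gene found in 13.3% and 14.3%. Pi16 and Msln were each found in at most 0.127%. Cells with such a UMI had Adamts2 at 524.5 and 392.0 CPM, and cells without at 224.9 and 240.5 CPM. With these cells left out of each bin, the log2 ratios of Adamts2 were 0.45, 0.57, 0.41 and 0.07 (-0.01 to 0.14), and those of Serpinh1 were 0.16, 0.11, 0.11 and 0.01 (-0.03 to 0.06). The values in the first 3 bins thus stayed above 0 without the marked cells, while those in the highest bin came close to 0, on a side that depended for Serpinh1 on how the bins were cut.

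Leaving them out changed the 10 genes to different degrees. The median log2 ratio was -0.25 without cells holding a UMI of these markers, -0.18 when both libraries were weighted to the same shares of collagen bins, and -0.08 without the highest bin. P4ha1 stayed between 0.20 and 0.24 under these 3 choices and P4hb between -0.32 and -0.30. Pcolce lay between -0.41 and -0.38. Serpinh1 went to -0.03, 0.01 and 0.09, and Adamts2 to 0.10, 0.24 and 0.48. Bmp1 went to -0.24, -0.17 and -0.08, and Fkbp10 to -0.26, -0.20 and -0.09. Crtap went to -0.27, -0.28 and -0.24, and P3h1 to -0.29, -0.19 and -0.21. The values of P4ha1 and P4ha2 therefore stayed within their counting intervals, those of P4hb and Pcolce moved outside theirs but stayed below 0, and those of Serpinh1 and Adamts2 depended in sign on the cells summed.

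**Figure D4:**
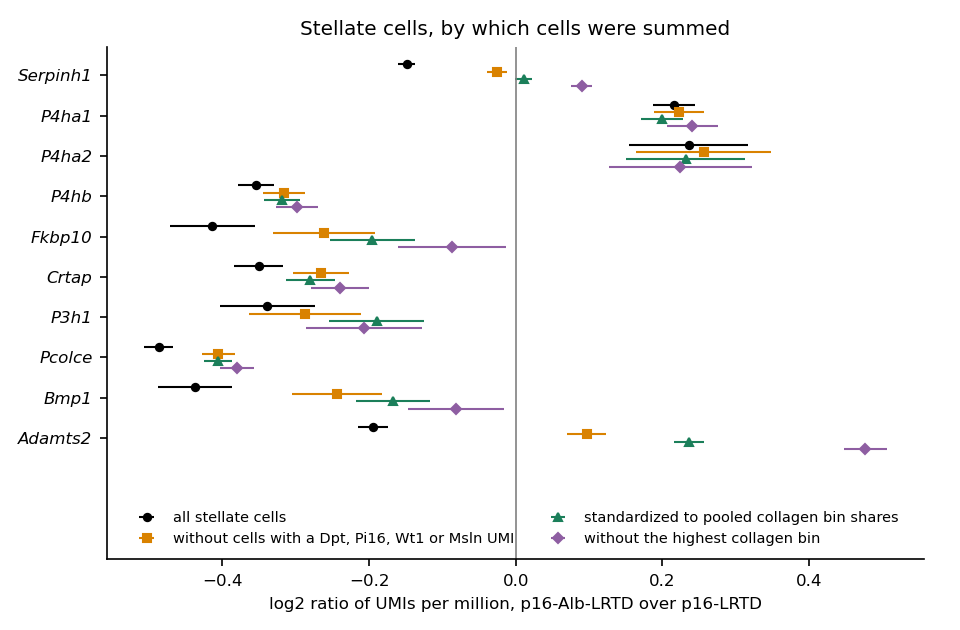
Log2 ratio of each gene in stellate cells (p16-Alb-LRTD over p16-LRTD) over all cells (black), without cells with a UMI of Dpt, Pi16, Wt1 or Msln (orange), with equal collagen bin shares (green) and without the highest collagen bin (purple); bars are 95% counting intervals. Adamts2 moves from -0.19 to 0.48 and Serpinh1 from -0.15 to 0.09, whereas P4ha1 and P4ha2 stay within their intervals and P4hb moves from -0.35 to -0.30.

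The share of stellate cells with at least 1 UMI was compared after every cell had been thinned to 5000 UMIs, which left out 16 and 7 shallower cells. Serpinh1 was found in 97.4% (97.0 to 97.7) and 97.1% (96.6 to 97.4) of stellate cells, so nearly every stellate cell carried it. In Kupffer cells the shares were 8.63% (5.61 to 12.6) and 5.65% (2.74 to 10.1) after the same thinning. Free RNA can give UMIs in cells that do not express a gene, so the Kupffer value stands as the level in a type not known as a collagen maker. Pcolce was found in 83.2% (82.3 to 84.0) and 71.5% (70.4 to 72.6) of stellate cells and in 4.32% and 0.565% of Kupffer cells. P4hb was found in 66.6% (65.5 to 67.6) and 56.9% (55.7 to 58.1), and P4ha1 in 45.9% (44.8 to 47.0) and 51.3% (50.1 to 52.5). Adamts2 was found in 67.0% (65.9 to 68.0) and 68.1% (66.9 to 69.2), so that its lower summed level in p16-Alb-LRTD did not come with fewer cells holding it. Crtap was found in 46.3% and 38.2%, Bmp1 in 22.8% and 18.3%, Fkbp10 in 18.2% and 14.5%, P3h1 in 15.4% and 12.7%, and P4ha2 in 8.50% and 9.51%. Before thinning, Serpinh1 was found in 99.9% and 99.8% of stellate cells.

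Across cell types the 10 genes ran from those at like levels in all types to those far higher in stellate cells. In p16-LRTD, stellate cells had 49.99-fold (41.5 to 60.8) the Serpinh1 level of Kupffer cells and 3.96-fold (3.76 to 4.18) that of endothelial cells. Adamts2 was 124.7-fold (75.6 to 222.7) above Kupffer cells and 45.0-fold (33.4 to 62.2) above endothelial cells. Fkbp10, Pcolce and Bmp1 were 84.1-fold (28.8 to 407.7), 64.6-fold (46.6 to 92.2) and 20.9-fold (12.9 to 36.6) above Kupffer cells. Some of these folds rested on a few collagen-rich cells, described below: without them Adamts2 was 111.6-fold (69.7 to 191.7) above endothelial and 185.8-fold (101.0 to 387.5) above Kupffer cells, and Bmp1 was 55.4-fold (25.4 to 150.9) above Kupffer cells. P4ha1, by contrast, was at 0.903-fold (0.844 to 0.967) the Kupffer level and 1.35-fold (1.24 to 1.46) the endothelial level. P4hb was at 1.40-fold and 1.60-fold. Crtap stood between, at 5.81-fold and 1.63-fold, as did P3h1 at 11.0-fold and 3.67-fold and P4ha2 at 3.07-fold and 1.21-fold. Endothelial cells shared Serpinh1 widely, with a UMI in 61.0% and 57.2% of them after thinning. In p16-Alb-LRTD the folds over Kupffer and endothelial cells were 56.2 and 4.45 for Serpinh1, 0.954 and 1.16 for P4ha1, and 123.0 and 121.7 for Adamts2. Bmp1 had a single UMI in Kupffer cells of that library, which leaves its fold between 33.3 and 7340.

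In endothelial cells, 7 of the 10 genes averaged 5 CPM, and 1 of these, Pcolce, was past the fold, lower in p16-Alb-LRTD. There 13.5% of 9858 genes tested were lower by that fold and 6.44% higher, so 1 of 7 is close to the background. Pcolce stood at 32.0 and 11.8 CPM, a log2 ratio of -1.44 (-1.93 to -0.97). Serpinh1 stood at 235.4 and 189.0 CPM, a log2 ratio of -0.32 (-0.45 to -0.19). P4ha1 was higher, as in stellate cells, at 98.8 and 133.1 CPM with a log2 ratio of 0.43 (0.26 to 0.60). P4hb was at 146.1 and 141.8 CPM, within counting error, and the number of P4ha1 UMIs per P4hb UMI went from 0.676 to 0.938. Crtap had a log2 ratio of -0.26 (-0.48 to -0.04), while P4ha2 and P3h1 were within counting error. The median of the 7 was -0.04, and that of all genes -0.10.

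A few cells weighed on the endothelial values. Of the 430 endothelial cells of p16-LRTD, 4 had at least 10 collagen UMIs per 10000, and these held 84.5% of all collagen UMIs of that class. The p16-Alb-LRTD library had no such endothelial cell. Without them, Pcolce stood at 25.7 against 11.8 CPM, a log2 ratio of -1.12 (-1.63 to -0.64), and Serpinh1 at -0.19 (-0.32 to -0.06). Adamts2, which had 43 and 9 UMIs in all endothelial cells, had 17 and 9 without them, and its log2 ratio went from -1.63 (-2.85 to -0.57) to -0.32 (-1.67 to 0.93). Bmp1 had 21 and 5 UMIs with them and 4 and 5 without. P4ha1 was at 0.43 with or without these cells. Barcodes passing more than 1 gate mattered as well: when they were counted in each type they passed, the log2 ratio in endothelial cells was -0.22 for Pcolce and 0.10 for Serpinh1.

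In Kupffer cells, 4 of the 10 genes averaged 5 CPM and none was past the fold, where 6.83% of 9514 genes were lower and 5.21% higher. P4hb stood at 166.7 and 174.1 CPM and P4ha1 at 147.2 and 161.9 CPM, both within counting error of equality. Over the processing alternatives the log2 ratio of P4ha1 ran from 0.02 to 0.22, and with TMM scaling its interval lay above 0. Crtap stood at 21.9 and 27.0 CPM and Serpinh1 at 18.7 and 14.98 CPM, also within counting error. The median log2 ratio of the 4 was 0.10, and that of all genes -0.06. Serpinh1 was at -1.41 when barcodes passing more than 1 gate were counted as Kupffer cells too. The remaining 6 genes were counted at most 36 times in either library, and Bmp1 was counted 16 times and 1 time. One Kupffer cell of p16-LRTD had at least 10 collagen UMIs per 10000, and without it Bmp1 was counted 6 times and 1 time and Serpinh1 was at a log2 ratio of -0.01 (-0.49 to 0.47).

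Other genes of the same pathway were described as lists. Among 24 further procollagen factors found, 19 averaged 5 CPM in stellate cells, of which 14 were lower and 5 higher, with 1 past the fold in each direction and a median log2 ratio of -0.19. The highest were the N-propeptidases related to Adamts2, Adamts3 at 19.7 and 55.3 CPM with a log2 ratio of 1.49 (1.42 to 1.55), and Adamts14 at 56.1 and 75.5 CPM with 0.43 (0.39 to 0.47). The lowest of the 19 was Creb3l1, an ER-bound transcription factor gene, at -0.59 (-0.62 to -0.55). Colgalt1, a collagen galactosyltransferase gene, followed at -0.53 (-0.56 to -0.50). Adamts2, at -0.19 over all stellate cells, was at 0.10, 0.24 and 0.48 under the 3 choices of cells above, so its sign depended on the cells summed.

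General protein folding genes lay on the other side. Of 17 genes for general ER chaperones and the unfolded protein response, 13 were higher and 4 lower in p16-Alb-LRTD, 6 were past the fold, all of them higher, and the median log2 ratio was 0.26. The highest were Herpud1 at 1.54 (1.499 to 1.57) and Ddit3 at 0.75 (0.68 to 0.82), both stress-induced. The lowest were Pdia6, a disulfide isomerase gene, at -0.17 (-0.19 to -0.15), and Ero1l, an ER oxidase gene, at -0.16 (-0.23 to -0.09). All 11 heat shock genes listed, mostly of cytosolic chaperones but with the mitochondrial Hspd1 and Hspe1, were higher, 8 past the fold, with a median of 0.75. Hspa1b reached 1.72 (1.59 to 1.85) and Hsph1 1.63 (1.57 to 1.69), while Hspe1 and Bag3 were at 0.16 and 0.27. Both lists lay mostly above 0 in the other cell types too. In endothelial cells 16 of 17 ER genes and 9 of 11 heat shock genes were higher, with medians of 0.49 and 0.72. In Kupffer cells 13 of 17 and 9 of 11 were higher, with medians of 0.10 and 0.47. Serpinh1, which also encodes a heat shock protein, was at -0.15 over all stellate cells, and its sign depended on the cells summed, as described above.

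Of 11 hypoxia response genes, 7 averaged 5 CPM, 5 of them lower, with a median of -0.20. Adm was highest at 0.70 (0.67 to 0.73), followed by Bnip3 at 0.06, and Vegfa was lowest at -1.07 (-1.21 to -0.93), followed by Ldha at -0.25. In endothelial cells 5 of 7 of the list were higher, with a median of 0.44, and in Kupffer cells 6 of 7 were lower, with a median of -0.30. P4ha1, a known hypoxia target, was at 0.22 in stellate cells, 0.43 in endothelial cells and 0.14 (-0.01 to 0.28) in Kupffer cells. Any relation of P4ha1 to this list was not tested. All 10 dissociation stress genes were higher in p16-Alb-LRTD in stellate cells, with a median of 0.56 and a range from 0.37 for Ier2 and 0.42 for Zfp36 to 0.75 for both Fos and Junb. They were also all higher in endothelial and Kupffer cells, with medians of 0.88 and 0.27, so this list separated the libraries in every cell type. Its part in the results was not tested. Of 8 proliferation genes, 7 averaged 5 CPM and all 7 were lower, with a median of -2.88, from Cenpf at -3.63 and Top2a at -2.95 to Mki67 at -2.54 and Cdk1 at -0.89. Without cells holding an Mki67 or Top2a UMI, the median of the 10 folding and processing genes was -0.33.

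**Figure D5:**
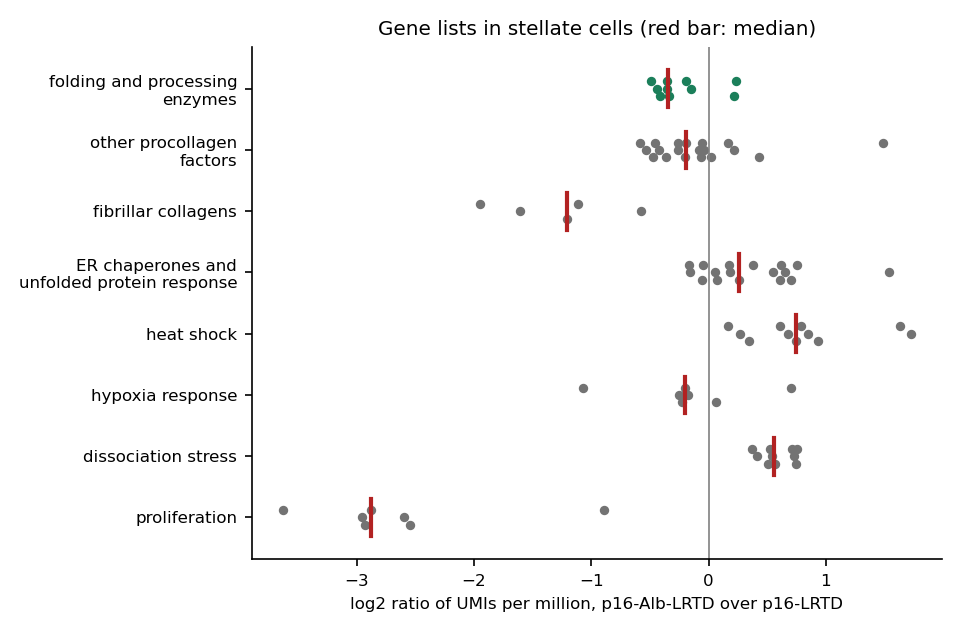
Log2 ratio (p16-Alb-LRTD over p16-LRTD) in stellate cells of each gene averaging 5 CPM in 8 lists; each point is a gene and the red bar is the list median. The 10 folding and processing genes (green) centre at -0.34, between the fibrillar collagens at -1.21 and the ER chaperone list at 0.26.

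The genes most like Serpinh1 were sought over 12 profiles, in which each library contributed its 4 collagen bins of stellate cells, its endothelial and its Kupffer cells. Over 7176 genes the highest Pearson correlations of log CPM were those of Nfic, Fkbp7, Kank2, Bace1, Fign and Osbpl5, from 0.995 to 0.998. The profiles share cells of the same libraries and are dominated by the contrast between cell types, so the values are a description. Of the other members, P3h1 stood at 0.985 and Crtap at 0.981, Pcolce at 0.948, Fkbp10 at 0.921, Bmp1 at 0.895 and Adamts2 at 0.891. P4hb stood at 0.526 and P4ha1 at -0.15, the lowest values among the 8 members measured beside Serpinh1. P4ha2 did not reach the 20 CPM needed to enter.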

How the data were processed

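Single-cell libraries of 1 preparation per genotype were made with the 10x 3′ kit. What the authors deposited are unnormalized counts, UMIs of each gene in each barcode, from Cell Ranger 7.0.1 on mm10 per the labels. Whether intronic reads were counted is not given in the sources used here. Everything below was computed from these counts. After the study's limits, barcodes with over 5% mitochondrial UMIs, under 2000 or over 7000 genes, or over 50000 UMIs were left out, while the study's further removal of clusters with few genes was not repeated. Doublets were treated only by these limits and by leaving out barcodes that passed more than 1 gate (245 and 221). Counts were summed per cell type and library and scaled to CPM with Python 3.11.15, numpy 2.4.6, scipy 1.17.1 and pandas 2.3.3, and edgeR 4.0.16 (R 4.3.3) gave TMM factors for an alternative. Ratio intervals are exact conditional, those of quotients of ratios use the delta method, and those of shares are Clopper-Pearson. The ratios and intervals were tested on simulated counts with known folds and counting error alone. Variation among cells, mice and preparations was not part of that test. Likeness to Serpinh1 used log2(CPM + 1) of genes averaging at least 20 CPM, without Col1a1, Col1a2 and Col3a1. The 10 genes were all named, and other lists give their 2 highest and 2 lowest ratios in stellate cells. Ppib and P4ha3 were named as well, beside the members of the same complex or family. The genes and lists were chosen with earlier results of these data known. The fibroblast-marker counts per bin, the limit of 10 collagen UMIs per 10000 and the removal of the highest collagen bin or of marked cells within bins were chosen after seeing the data.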

Additional observations from a re-analysis of the deposited data

Results flagged for a closer look

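Serpinh1 and Adamts2 had log2 ratios on opposite sides of 0 in different collagen bins of stellate cells. For Serpinh1 the highest was 0.16 in the lowest bin and the lowest was -0.18 in the highest bin. For Adamts2 the values were 0.60 in the second bin and -0.11 in the highest bin. Without cells holding a UMI of Dpt, Pi16, Wt1 or Msln, the highest-bin values were 0.01 (-0.03 to 0.06) for Serpinh1 and 0.07 (-0.01 to 0.14) for Adamts2 within the same bin limits. With the bins cut anew after these cells were left out, the values were -0.04 (-0.06 to -0.01) and 0.0504, so Serpinh1 remained on opposite sides of 0. With 1 library per genotype the difference between bins was not tested.

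Barcodes that passed no gate, 194 in p16-LRTD and 113 in p16-Alb-LRTD, entered no comparison and still carried these genes well above the limit set by 3 counts. Serpinh1 stood at 857.4 and 644.4 CPM there, P4hb at 352.7 and 352.0 CPM, and Bmp1 at 186.0 and 150.9 CPM. Of the 10 genes, 4 were above their stellate level in both libraries, namely Bmp1, P4hb, Crtap and P4ha2, and so was Col1a1 at 3496 and 2408 CPM.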

How the results depend on the processing

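No paired analysis was possible because the design has 1 library for each genotype, and leaving out a library leaves no comparison. Over 22 alternatives, 381 values were recomputed, of which 302 stayed within the counting interval or kept the count, 73 moved and 6 single-gene values turned direction with both intervals clear of 0. Whatever the interval, 19 values were on the other side of 0, of which 12 were medians over the genes, in endothelial cells, Kupffer cells or the lowest bin. The stellate median was -0.25 without cells with a Dpt, Pi16, Wt1 or Msln UMI, -0.18 with pooled bin shares and -0.084 without the highest bin. Adamts2 in stellate cells turned to 0.10, 0.24 and 0.48 in that order, and to 0.0504 in the highest bin without the marked cells (bins cut anew), where Serpinh1 was at -0.04 (-0.06 to -0.01). Serpinh1 turned to 0.090 without the highest bin, and to 0.10 in endothelial cells when barcodes were kept in every gate they pass. Serpinh1 per collagen UMI (log2) was 1.38 with gates doubled in height, 1.43 without upper limits, 1.37 without the deepest 5% of barcodes, 1.36 in cells of 10000 to 30000 UMIs, 0.95 without the marked cells and 0.17 without the highest bin. The highest-bin median was -0.17 without upper limits. Keeping barcodes in every gate gave medians of 0.17 in endothelial and -1.30 in Kupffer cells, and a minimum of 1 CPM or none gave -0.32 and -0.50 in Kupffer cells. The number lower past the fold in stellate cells was 6 at a log2 difference of 0.32, where 11.0% of all genes were lower. The number past the fold in endothelial and Kupffer cells, 1 as reported, was 6 with every gate, 4 with higher gates, 3 with 10% mitochondrial UMIs, 3 without upper limits, 2 without the deepest barcodes, 3 with the mean of per-cell CPM, 8 and 9 with the lower minimums and 2 at a log2 difference of 0.32. For endothelial and Kupffer cells the share of all genes past the fold was computed only for the reported setting. These counts thus have no background beside them. Serpinh1 shares were 90.8% and 90.1% when thinned to 3000 UMIs, and 99.9% and 99.8% without thinning. The cause of these shifts was not tested. In endothelial and Kupffer cells several genes rest on fewer than 50 UMIs, with few cells in each class.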

Other observations

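Barcodes that passed more than 1 gate, 245 in p16-LRTD and 221 in p16-Alb-LRTD, also stayed out of the comparisons. In them Serpinh1 stood at 582.5 and 536.1 CPM, Pcolce at 215.0 and 150.1 CPM, Adamts2 at 174.1 and 155.4 CPM, and P4ha1 at 136.6 and 149.4 CPM. Of all 10 genes, 9 had the libraries in the order seen in stellate cells, and P3h1, at 21.6 and 22.7 CPM, did not.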
